A study of Mus musculus with 10 samples.

Results

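The mitosis and kinetochore genes described here are 35 genes for the mitotic cyclins and kinases, the chromosomal passenger complex, the spindle checkpoint, the centromere and kinetochore, the spindle, the cleavage apparatus and mitotic chromosome structure. They were taken by name: a gene was measured where a probe set of the array named that gene alone, and a gene with several such probe sets was represented by the one with the highest mean. All 35 were measured, of 19937 genes in all, and Top2a was the only one with more than one probe set. The levels are log2 values of a hybridisation signal, so a difference of 1 is a doubling.

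The measurements come from 10 arrays of J558, a mouse myeloma (plasma-cell tumour) line, transduced with the retroviral vector MSCV-PIG, which carries puromycin resistance and GFP. Pax5 G183S cells (4 arrays) received the vector with Pax5 carrying a glycine-to-serine change in its octapeptide motif, Pax5 WT cells (3 arrays) received the vector with wild-type Pax5, and EV cells (3 arrays) received the empty vector. Every culture, the EV ones included, was kept in puromycin for 5 to 7 days and sorted on GFP and IgM, and the labels call the arrays of a group biological or independent replicates. The labels do not say which IgM gate was kept in each group. Pax5 is the transcription factor that commits and holds cells to the B lineage and is normally silenced in plasma cells, so the model is forced expression from a viral promoter in a lone tumour line.

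Mitosis is run by a cascade of kinases, headed by cyclin-bound Cdk1, that condenses chromosomes, builds the spindle and couples kinetochores, the protein plates on centromeres, to microtubules. The spindle checkpoint holds back the anaphase-promoting complex until each kinetochore is attached, after which the sister chromatids part and the cell is cleaved. Transcripts of these genes accumulate in G2 and M phase, largely through promoters in which CCAAT boxes, bound by NF-Y, lie upstream of a cell-cycle genes homology region (CHR), bound by the MuvB core of the DREAM and B-Myb complexes. In a bulk culture, more cells in G2 or M and more of a transcript per cell cannot be told apart.

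Pax5 levels set the arrays of both Pax5 vectors apart from the EV arrays. Pax5 had log2 levels of 10.22, 10.36, 9.38 and 9.96 on the G183S arrays, 10.67, 10.09 and 10.05 on the WT arrays and 7.10, 6.85 and 7.01 on the EV arrays. The G183S and WT ranges overlapped, so these levels do not check which of the 2 Pax5 forms an array carried. All 12 plasma-cell markers were above 7.23, the median of all gene means, on every array, from 7.72 (Tnfrsf17, on the second G183S array) to 13.14 (Jchain). With limma over all genes, called at a Benjamini-Hochberg adjusted p under 0.05, 374 genes differed between WT and EV cells (176 higher, 198 lower), 62 between G183S and EV cells and 0 between G183S and WT cells, where 1 array decided the count, as given below. Centring each array on its median made the WT split 100 higher and 218 lower. The 3 comparisons share arrays, so they are not independent of each other.

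Promoter windows are shown for the 3 genes that passed the test and for 2 others, Hmmr and Ccnb2, that hold both motifs. The windows are RefSeq's for GRCm38.p6, from 250 bases before to 50 bases after an annotated transcription start, written 5′ to 3′ on the gene's own strand, with CHR and CCAAT letters in capitals. Cenpe, the kinesin that links kinetochores to microtubule ends, lies at chr3:135212313-135212612 on the plus strand. Cenpf, a large kinetochore protein that appears in G2, is at chr1:189688037-189688336 on the minus strand, and Ndc80, the microtubule-binding subunit of the outer kinetochore, is at chr17:71526808-71527107 on the minus strand. The spindle protein gene Hmmr is at chr11:40733388-40733687 on the minus strand and the mitotic cyclin gene Ccnb2 at chr9:70421505-70421804 on the minus strand.
Cenpe: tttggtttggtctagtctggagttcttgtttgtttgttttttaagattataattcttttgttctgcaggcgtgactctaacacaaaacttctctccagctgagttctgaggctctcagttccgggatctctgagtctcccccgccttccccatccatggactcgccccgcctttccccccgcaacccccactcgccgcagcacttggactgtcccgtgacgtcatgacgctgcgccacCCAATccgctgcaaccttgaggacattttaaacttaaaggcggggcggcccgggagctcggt
Cenpf: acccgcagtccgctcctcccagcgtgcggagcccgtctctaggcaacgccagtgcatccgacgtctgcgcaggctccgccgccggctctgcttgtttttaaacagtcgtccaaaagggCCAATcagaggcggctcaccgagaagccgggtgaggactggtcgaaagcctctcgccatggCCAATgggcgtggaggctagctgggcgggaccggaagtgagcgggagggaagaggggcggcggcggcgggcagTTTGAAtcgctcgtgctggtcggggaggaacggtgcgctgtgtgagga
Ndc80: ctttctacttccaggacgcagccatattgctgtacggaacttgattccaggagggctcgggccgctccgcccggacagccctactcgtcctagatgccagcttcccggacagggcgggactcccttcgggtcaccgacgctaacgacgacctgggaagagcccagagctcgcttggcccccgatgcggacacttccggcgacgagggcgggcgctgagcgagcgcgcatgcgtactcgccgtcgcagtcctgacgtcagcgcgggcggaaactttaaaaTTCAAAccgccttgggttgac
Hmmr: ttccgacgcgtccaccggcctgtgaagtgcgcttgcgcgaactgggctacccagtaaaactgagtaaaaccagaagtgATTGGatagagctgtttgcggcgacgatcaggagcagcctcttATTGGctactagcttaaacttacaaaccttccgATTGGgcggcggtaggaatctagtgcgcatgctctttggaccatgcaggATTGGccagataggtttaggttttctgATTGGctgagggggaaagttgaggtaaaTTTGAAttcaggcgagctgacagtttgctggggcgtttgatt
Ccnb2: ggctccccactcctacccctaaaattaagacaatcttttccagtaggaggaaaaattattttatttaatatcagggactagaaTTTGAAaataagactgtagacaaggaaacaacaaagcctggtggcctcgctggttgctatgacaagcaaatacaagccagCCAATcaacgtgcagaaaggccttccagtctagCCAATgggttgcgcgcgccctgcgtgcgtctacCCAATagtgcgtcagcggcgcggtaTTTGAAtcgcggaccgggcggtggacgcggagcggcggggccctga

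In the Cenpf window the CHR began at position 3, counted from 1 at the first transcribed base, and CCAAT boxes began at -132 and -71. Hmmr held a CHR at position 9 and 5 CCAAT boxes, all on the opposite strand, where they read ATTGG. Ccnb2 held CHRs at -167 and 5 and CCAAT boxes at -87, -54 and -21. Cenpe held a CCAAT box at -12 and no CHR, while Ndc80 held a CHR at position 30, read on the opposite strand as TTCAAA, and no CCAAT box. The 3 genes that passed the test thus held 3 different combinations of the motifs in these windows.

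A CHR, searched as TTTGAA or TTCGAA on both strands, was present in 26 of the 33 windows of the 31 genes with an entry (78.8%), against 19.2% of 32851 windows of all genes. CCAAT, on both strands, was present in 25 of 33 (75.8%), against 37.4% of all windows. Both motifs stood in 23 of 33 windows (69.7%), against 7.5% of all windows, and at least 2 CCAAT boxes in 51.5%, against 11.7%. The letters of the 2 motifs share no bases where they were found in the 5 windows printed. Ccna2, Aurkb, Tpx2 and Kif20a had no entry. Birc5, Mad2l1, Nuf2, Nusap1 and Ncaph had windows with neither motif.

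Mitotic genes had higher levels in cells given wild-type Pax5 than in cells given the empty vector, and most were short of the threshold when tested gene by gene. All 35 had a higher mean in WT cells, against 53.9% of all genes, and the median difference was 0.67 on the log2 scale, against 0.01 over all genes. The smallest difference was 0.20 (Bub1b) and the largest 1.58 (Cenpe). Only 3 genes, all of the kinetochore, passed the test in this fit: 3 of 35, against 0.883% of all genes called higher. At an unadjusted p under 0.05, 25 of 35 were higher, against 7.38% of all genes. In 30 of 35, every WT array lay above every EV array, against 11.5% of all genes, and the 5 exceptions were Ccna2, Cdk1, Aurkb, Bub1b and Ncaph. A difference of at least 1 was reached by 5 of 35, Cenpe, Cenpf, Hmmr, Ndc80 and Aspm, against 0.692% of all genes.

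**Figure D1:**
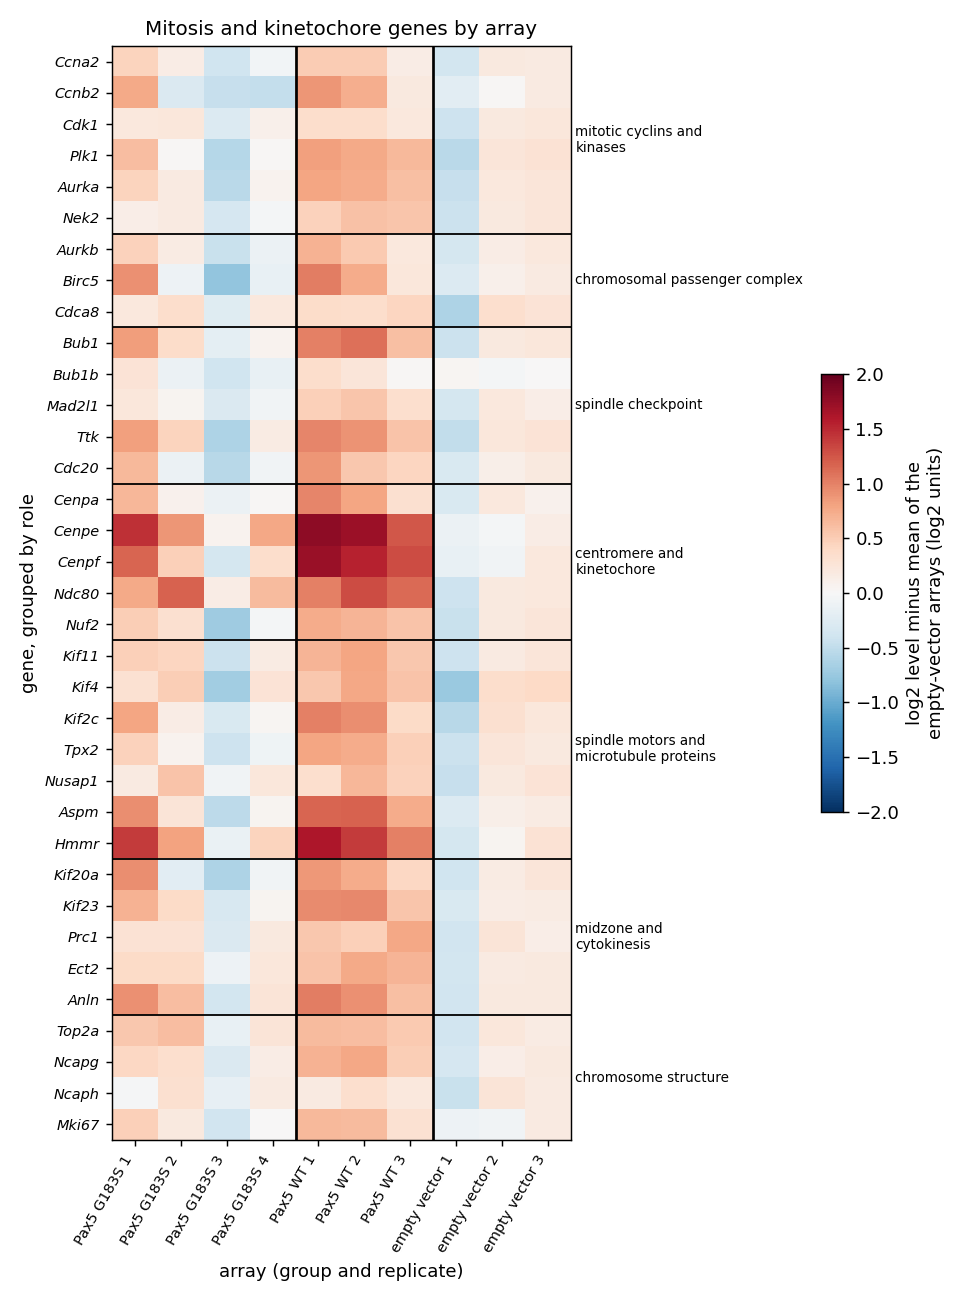
Log2 level of each of the 35 genes (rows, by function) on each array (columns, G183S, WT and EV from left to right), as the difference from that gene's mean over the EV arrays. The WT columns are above the EV mean in all 35 rows on average, and the first EV array and the third G183S array are each the lowest of their group in 34 rows.

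The 5 kinetochore and centromere genes had a median difference of 1.15, from 0.67 (Nuf2) to 1.58 (Cenpe). Cenpe had log2 levels of 9.90, 9.32, 8.51 and 9.22 on the G183S arrays, 10.22, 10.15 and 9.68 on the WT arrays and 8.33, 8.40 and 8.59 on the EV arrays. Its difference between WT and EV cells was 1.58 ± 0.29 (SE, adjusted p = 0.0311), or 2.99-fold. The lowest WT array was more than 1 log2 unit above the highest EV array, and the G183S arrays spanned the gap, with the first G183S array within the WT range. Cenpf stood at 9.55, 8.85, 8.03 and 8.74 with G183S, 10.11, 9.91 and 9.68 with WT and 8.23, 8.31 and 8.60 with the empty vector, a WT difference of 1.52 ± 0.30 (SE, adjusted p = 0.0404), or 2.87-fold. Here too WT and EV did not overlap, and the G183S arrays reached from below the lowest EV array to just below the lowest WT array.

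Ndc80 was measured at 9.84, 10.26, 9.23 and 9.72 on the G183S arrays, 10.10, 10.39 and 10.21 on the WT arrays and 8.67, 9.28 and 9.30 on the EV arrays, with a WT difference of 1.15 ± 0.24 (SE, adjusted p = 0.0471), or 2.22-fold. The first EV array was well below the other EV arrays, yet all 3 lay under every WT array, while the second G183S array was inside the WT range. The remaining genes of the class missed the threshold. Cenpa, the histone H3 variant that marks centromeres, differed by 0.69 ± 0.23 (SE, adjusted p = 0.168) and Nuf2, the partner of Ndc80, by 0.67 ± 0.29 (SE, adjusted p = 0.289). The calls depended on the arrays in the fit and on their scaling: 0 of the 35 genes were called without any of the 3 EV arrays in turn, without the first or second WT array, or without the fourth G183S array. Centring each array on its median, with all arrays kept, left Cenpe alone, against 0.502% of all genes called higher. Without the first G183S array 8 of the 35 genes were called, against 1.85% of all genes called higher, and without the third G183S array 4, against 1.07%. Without the second G183S array Ndc80 alone was called, against 0.441%, and without the third WT array Cenpe alone, against 0.647%. Across all alternatives the difference stayed between 1.48 and 1.75 for Cenpe (adjusted p between 9.03e-04 and 0.136), between 1.42 and 1.63 for Cenpf (0.00143 and 0.166) and between 0.94 and 1.26 for Ndc80 (0.00568 and 0.140).

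**Figure D2:**
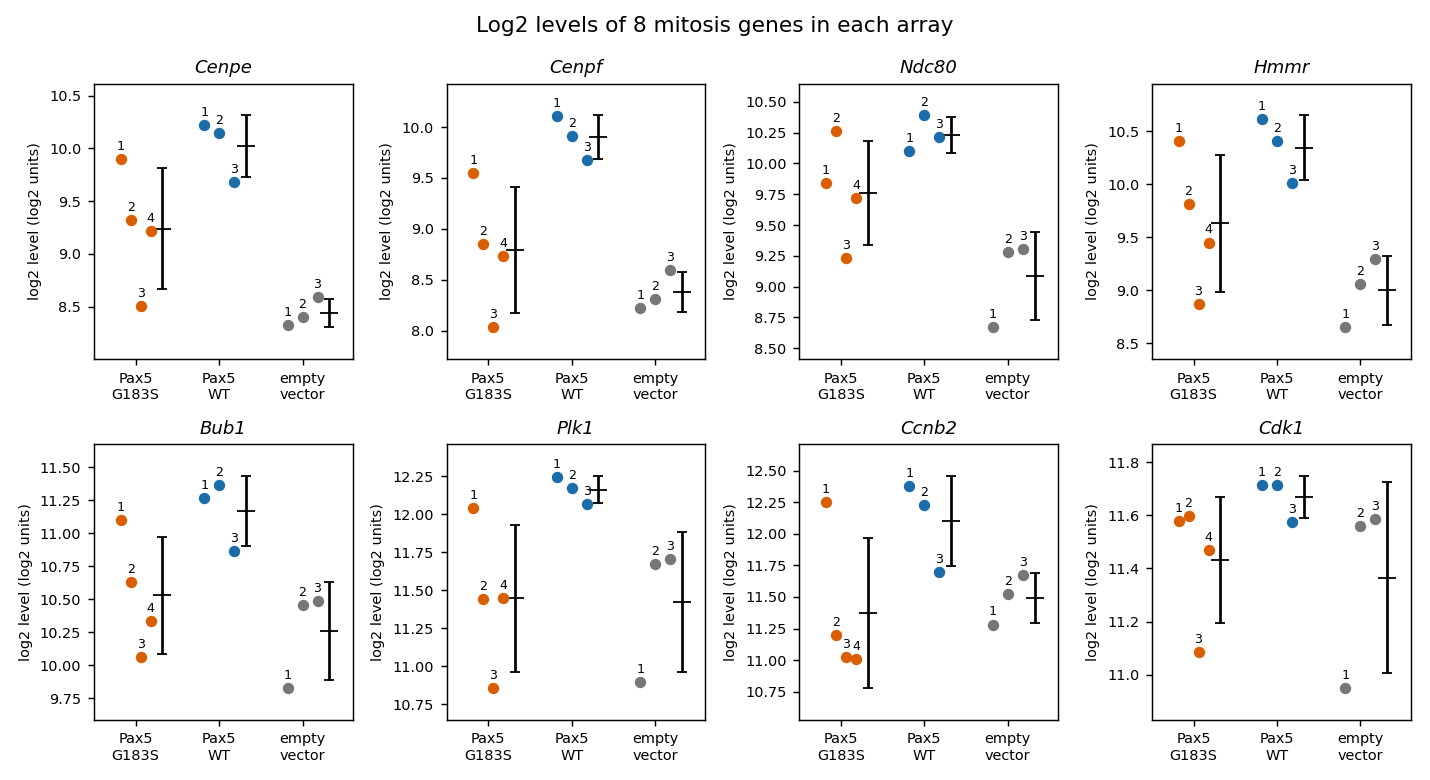
Log2 level (vertical axis) of Cenpe, Cenpf, Ndc80, Hmmr, Bub1, Plk1, Ccnb2 and Cdk1 on each array (points, numbered by replicate), with the mean and SD (bars) of each group, G183S (n = 4), WT (n = 3) and EV (n = 3). For Cenpe, Cenpf and Ndc80 the WT points sit above all EV points, and the G183S points spread widely, into the WT range for Cenpe and Ndc80 and below the EV points for Cenpf.

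The mitotic cyclins and kinases had smaller differences, with a median of 0.57, and 0 of 6 passed the test. Plk1, the Polo-like kinase that drives spindle assembly and mitotic exit, had log2 levels of 12.04, 11.44, 10.86 and 11.45 on the G183S arrays, 12.24, 12.18 and 12.07 on the WT arrays and 10.89, 11.67 and 11.71 on the EV arrays. Its WT difference was 0.74 ± 0.28 (SE, adjusted p = 0.236). Every WT array exceeded every EV array, and every G183S array was below the lowest WT array. Aurka, the kinase of spindle poles, was at 10.57, 10.31, 9.58 and 10.20 with G183S, 10.92, 10.86 and 10.73 with WT and 9.67, 10.35 and 10.37 with the empty vector, which gave 0.71 ± 0.25 (SE, adjusted p = 0.192) between WT and EV cells. Nek2, a centrosome kinase, had 10.11, 10.15, 9.63 and 9.94 on the G183S arrays, 10.44, 10.56 and 10.53 on the WT arrays and 9.54, 10.17 and 10.21 on the EV arrays, with a WT difference of 0.54 ± 0.18 (SE, adjusted p = 0.182). For both kinases the WT arrays lay close together, above every G183S and every EV array.

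Ccnb2, cyclin B2, had 12.25, 11.20, 11.03 and 11.01 with G183S, 12.38, 12.22 and 11.70 with WT and 11.28, 11.52 and 11.68 with the empty vector. The third WT array, 11.70, was only just above the highest EV array, 11.68, and the WT difference was 0.60 ± 0.31 (SE, adjusted p = 0.383). Cdk1, the kinase that the mitotic cyclins activate, had 11.58, 11.60, 11.09 and 11.47 on the G183S arrays, 11.71, 11.71 and 11.58 on the WT arrays and 10.95, 11.56 and 11.59 on the EV arrays, with a WT difference of 0.30 ± 0.18 (SE, adjusted p = 0.459). Its WT and EV ranges overlapped. Ccna2, cyclin A2, which acts from S phase to early mitosis, differed by 0.39 ± 0.22 (SE, adjusted p = 0.434), and its ranges overlapped as well.

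In the chromosomal passenger complex, which corrects faulty kinetochore attachments, 0 of 3 genes passed the test. Aurkb, its kinase, had log2 levels of 12.07, 11.77, 11.17 and 11.50 on the G183S arrays, 12.31, 12.14 and 11.82 on the WT arrays and 11.26, 11.76 and 11.83 on the EV arrays. The lowest WT array, 11.82, lay just under the highest EV array, 11.83, and the WT difference was 0.48 ± 0.23 (SE, adjusted p = 0.355). Birc5, survivin, had 9.87, 8.85, 8.15 and 8.80 with G183S, 9.98, 9.70 and 9.18 with WT and 8.67, 9.05 and 9.13 with the empty vector, with a WT difference of 0.67 ± 0.37 (SE, adjusted p = 0.417). Its first G183S array was among the WT arrays and the third G183S array was below all EV arrays, and its SE was the largest of the 35 genes. Cdca8, borealin, differed by 0.38 ± 0.23 (SE, adjusted p = 0.476).

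Of the 5 spindle checkpoint genes, 0 passed the test. At an unadjusted p under 0.05, 4 were higher in WT cells, against 7.38% of all genes. Bub1, the kinase that recruits checkpoint proteins to kinetochores, had 11.10, 10.63, 10.06 and 10.34 on the G183S arrays, 11.27, 11.37 and 10.86 on the WT arrays and 9.83, 10.46 and 10.49 on the EV arrays, with a WT difference of 0.91 ± 0.27 (SE, adjusted p = 0.126). The WT arrays were separate from the EV arrays, and the first G183S array lay among them. Mad2l1, the Cdc20 inhibitor Mad2, had 11.32, 11.14, 10.81 and 11.02 with G183S, 11.57, 11.65 and 11.44 with WT and 10.75, 11.30 and 11.23 with the empty vector, a WT difference of 0.46 ± 0.16 (SE, adjusted p = 0.193). Cdc20, the activator of the anaphase-promoting complex that the checkpoint restrains, had 11.52, 10.75, 10.31 and 10.79 on the G183S arrays, 11.74, 11.40 and 11.30 on the WT arrays and 10.55, 10.98 and 11.05 on the EV arrays, a WT difference of 0.62 ± 0.27 (SE, adjusted p = 0.290). Inhibitor and activator thus differed in the same direction between WT and EV cells, neither past the threshold. Ttk, the Mps1 kinase, differed by 0.82 ± 0.33 (SE, adjusted p = 0.264) and Bub1b, BubR1, by 0.20 ± 0.15 (SE, adjusted p = 0.563).

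All 7 spindle genes had WT arrays above all EV arrays, against 11.5% of all genes, and 0 passed the test. Hmmr, a spindle pole and microtubule protein, had 10.40, 9.81, 8.87 and 9.45 on the G183S arrays, 10.61, 10.40 and 10.01 on the WT arrays and 8.65, 9.06 and 9.29 on the EV arrays, with a WT difference of 1.34 ± 0.34 (SE, adjusted p = 0.0835). Aspm, which focuses spindle poles, had 9.56, 8.89, 8.11 and 8.69 with G183S, 9.81, 9.81 and 9.38 with WT and 8.36, 8.75 and 8.80 with the empty vector, a WT difference of 1.03 ± 0.30 (SE, adjusted p = 0.126). For both genes the first G183S array was inside the WT range and the third G183S array was the lowest of its group. The remaining 5 were the kinesin Kif11, which pushes spindle poles apart, the chromokinesin Kif4, the microtubule depolymerase Kif2c, the spindle assembly factor Tpx2 and the microtubule bundler Nusap1. Their WT differences lay between 0.49 (Nusap1) and 0.77 (Kif2c).

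The 5 genes of the spindle midzone and cytokinesis likewise had all WT arrays above all EV arrays, against 11.5% of all genes. Their adjusted p lay between 0.0821 and 0.371. Ect2, the exchange factor that activates RhoA at the cleavage site, had 11.23, 11.23, 10.75 and 11.07 on the G183S arrays, 11.43, 11.61 and 11.53 on the WT arrays and 10.48, 11.03 and 11.05 on the EV arrays, a WT difference of 0.67 ± 0.17 (SE, adjusted p = 0.0821). Kif23, the motor of centralspindlin, had 10.39, 10.07, 9.37 and 9.74 with G183S, 10.64, 10.64 and 10.24 with WT and 9.37, 9.84 and 9.85 with the empty vector, a WT difference of 0.82 ± 0.24 (SE, adjusted p = 0.128). For both genes the first EV array was below the other 2, which lay close together. Anln, the scaffold of the cleavage furrow, differed by 0.85, Kif20a, a midzone kinesin, by 0.68, and Prc1, which bundles midzone microtubules, by 0.59.

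Among the chromosome structure genes, 0 of 4 passed the test. Top2a, the topoisomerase that disentangles sister chromatids, had 11.83, 11.91, 11.15 and 11.55 on the G183S arrays, 11.92, 11.91 and 11.81 on the WT arrays and 10.90, 11.51 and 11.46 on the EV arrays, a WT difference of 0.59 ± 0.21 (SE, adjusted p = 0.192). Its second probe set was dim, between 4.82 and 5.87. Ncapg, a condensin I subunit, had 10.28, 10.20, 9.58 and 10.01 with G183S, 10.56, 10.65 and 10.36 with WT and 9.54, 10.01 and 10.06 with the empty vector, a WT difference of 0.65 ± 0.19 (SE, adjusted p = 0.125). Mki67, the proliferation antigen Ki-67 that coats mitotic chromosomes, had 12.42, 12.12, 11.55 and 11.93 on the G183S arrays, 12.58, 12.57 and 12.24 on the WT arrays and 11.83, 11.86 and 12.11 on the EV arrays, a WT difference of 0.53 ± 0.19 (SE, adjusted p = 0.213). The WT arrays of Top2a, Ncapg and Mki67, 3 of the 4 genes, were above all EV arrays, against 11.5% of all genes. Ncaph, another condensin I subunit, differed by 0.24 ± 0.18 (SE, adjusted p = 0.578), with overlapping ranges.

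With Pax5 G183S the arrays did not separate from the EV arrays. The G183S mean was above the EV mean in 29 of 35 genes and below it in 6 (Ccnb2, Nek2, Birc5, Bub1b, Mad2l1 and Cdc20, by -0.12 to -0.02), and for all 29 it lay between the EV and WT means. The median difference was 0.13, against -0.0033 over all genes. limma called 0 of the 35, against 0.1% of all genes called higher and 0.211% called lower, and 2 had an unadjusted p under 0.05, against 5.12% of all genes higher. Those 2 were Cenpe, with a difference of 0.80 ± 0.27 (SE, adjusted p = 0.260), and Ndc80, with 0.68 ± 0.23 (SE, adjusted p = 0.255). In 0 of 35 was every G183S array above every EV array, against 5.02% of all genes. Kinetochore genes had a median difference of 0.41 and spindle checkpoint genes one of -0.02.

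The G183S arrays differed widely among themselves. As the mean of the 35 genes minus the EV mean, they stood at 0.59, 0.29, -0.35 and 0.10, the WT arrays at 0.80, 0.78 and 0.53, and the EV arrays at -0.37, 0.17 and 0.21. Against the EV range, the first G183S array was above all EV arrays in 29 of 35 genes, against 28.2% of all genes. The second was above in 21, against 27%. The fourth was above in 7, or 20%, which was under its share of all genes, 28.6%. The third was above in 0, against 33.3%, and below all EV arrays in 16, against 29.1%. The third G183S array was the lowest of its group in 34 of 35 genes, against 22.4% of all genes, and the first was the highest in 26 of 35, against 28.9%. The first EV array was the lowest of its group in 34 of 35, against 38.3% of all genes. Without that EV array only 12 of the 35 G183S means were higher than the EV mean, without the first G183S array 17 were, and without the third 34. Leaving out the first EV and first G183S arrays together, a choice made after the values were seen, moved the median difference to -0.20 with 0 genes called.

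The direct comparison of the 2 Pax5 forms gave a lower mean in G183S cells for all 35 genes, with a median difference of -0.53, against -0.02 over all genes. limma called 0 of 35, as it called 0% of all genes lower. At an unadjusted p under 0.05, 20 of 35 were lower, against 4.41% of all genes. In 12 of 35 every G183S array was below every WT array, against 4.17% of all genes. The 12 were Plk1, Aurka, Nek2, Mad2l1, Cenpf, Nuf2, Kif11, Kif4, Tpx2, Prc1, Ect2 and Ncapg. Cenpf had the largest difference, -1.11 ± 0.28 (SE, unadjusted p = 0.00296, adjusted p = 0.484).

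**Figure D3:**
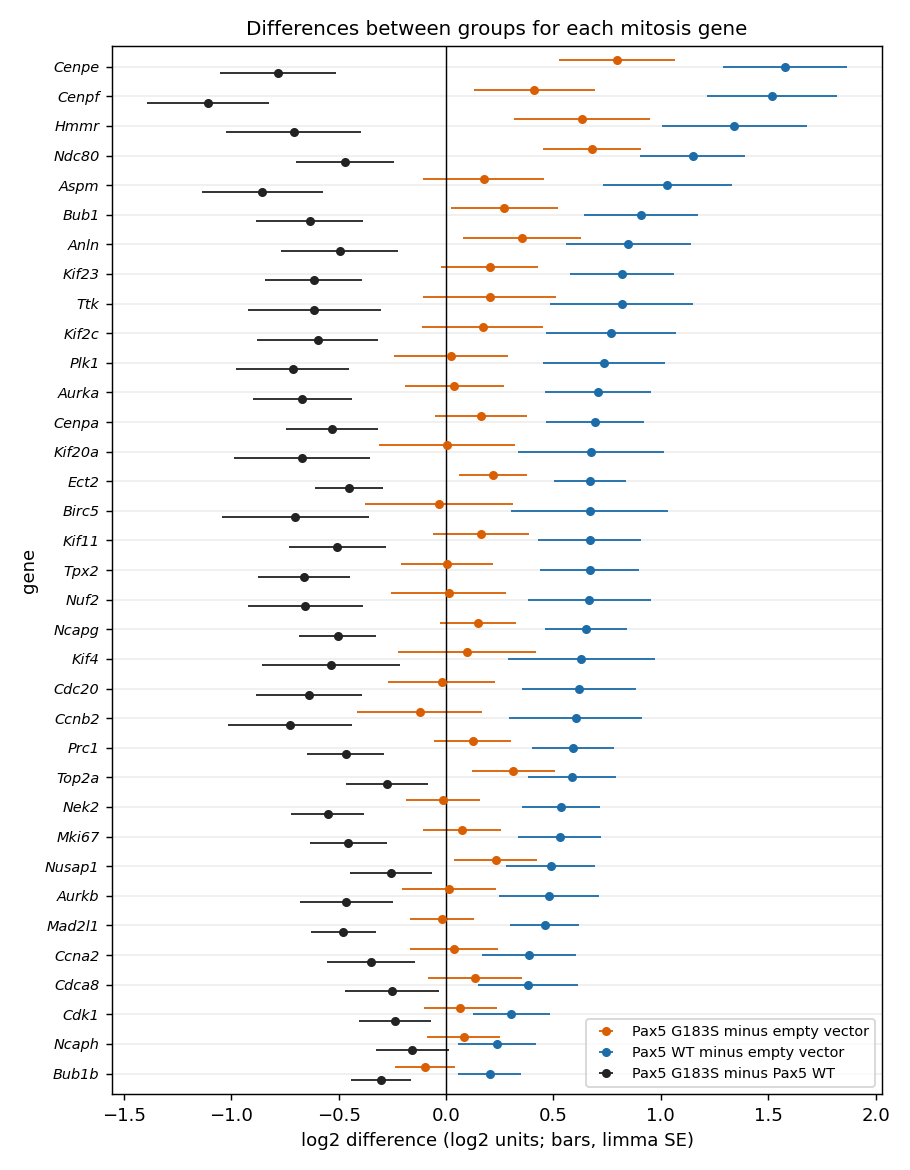
Log2 difference (horizontal axis) with its SE for each of the 35 genes (rows, ordered by the WT minus EV difference) in the 3 comparisons. WT minus EV is above 0 for every gene, G183S minus WT is below 0 for every gene, and G183S minus EV runs from -0.12 (Ccnb2) to 0.80 (Cenpe).

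The first G183S array decided that count. Without the first G183S array, 11 of the 35 genes were called lower in G183S than in WT cells: Aspm, Birc5, Bub1b, Ccnb2, Cdc20, Cenpe, Cenpf, Kif20a, Kif23, Plk1 and Tpx2. In that fit 302 of 19937 genes were called lower and 811 higher, so 1.51% of all genes were called lower. Cenpf then differed by -1.36 (adjusted p = 0.0150, with a range of 0.0150 to 0.845 over all alternatives), Ccnb2 by -1.02 (adjusted p = 0.0180, range 0.0167 to 0.845) and Aspm by -1.10 (adjusted p = 0.0231, range 0.0167 to 0.845). In 27 of 35 genes the other 3 G183S arrays were all below every WT array, against 10.9% of all genes. With the first EV array left out as well, 16 of the 35 were called lower, against 1.13% of all genes. Down-weighting variable arrays gave the first G183S array the lowest weight of the 10, 0.335, and called 21 of the 35 lower, against 5.5% of all genes. With each other single array left out, 0 were called.

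Plasma-cell marker levels set the first G183S array apart from the other 3 as well. The mean of the 12 markers, as the difference from the EV mean, was 0.18 on the first G183S array and -0.71, -0.61 and -0.44 on the other 3, 0.08, 0.13 and -0.29 on the WT arrays and -0.06, -0.02 and 0.08 on the EV arrays. The markers differed among themselves. Slamf7, a plasma-cell surface receptor, had 11.66, 11.43, 11.05 and 11.44 on the G183S arrays, 11.62, 11.86 and 11.67 on the WT arrays and 11.25, 11.34 and 11.37 on the EV arrays. Derl3, which clears misfolded proteins, had 11.44, 10.69, 10.95 and 10.84 with G183S, 11.01, 11.17 and 10.98 with WT and 11.39, 11.43 and 11.64 with the empty vector, and Irf4, a plasma-cell transcription factor, had 12.59, 11.88, 11.34 and 11.62 on the G183S arrays, 12.59, 12.54 and 12.20 on the WT arrays and 11.80, 11.77 and 12.02 on the EV arrays. Irf4 and Slamf7 averaged higher in WT than in EV cells and Derl3 lower. limma called 0 of the 12 in either comparison with EV cells. At an unadjusted p under 0.05, 1 was higher (Slamf7) and 1 lower (Derl3) with WT, against 7.38% of all genes higher and 8.55% lower. With G183S 0 were higher and 4 lower (Sdc1, Tnfrsf17, Xbp1 and Derl3), against 6.18% of all genes lower. By mean, 9 of the 12 were lower and 3 higher with G183S than with the empty vector, against 48.8% of all genes higher. Tnfrsf17 had the largest difference, -2.08, with means of 8.993 with G183S and 11.075 with the empty vector. Sdc1 averaged 10.262 with G183S and 11.405 with the empty vector. The part of this shift in the mitotic differences was not tested.

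Some of the 35 genes had larger differences than the rest on the same arrays. A gene's level minus the mean of the other 34 on the same array takes off the mean level of the group on that array. On that scale Cenpe was higher in WT than in EV cells by 0.90, Cenpf by 0.84, Hmmr by 0.66, Ndc80 by 0.46 and Aspm by 0.34, with no overlap of arrays. Bub1 was higher by 0.21 and Anln by 0.15. Below the rest of the group in WT cells, again with no overlap, were Bub1b by -0.52, Ncaph by -0.48, Cdk1 by -0.41, Ccna2 by -0.33, Mad2l1 by -0.25 and Aurkb by -0.23. Cenpe, Cenpf, Hmmr, Ndc80 and Aspm had EV means between 8.38 and 9.08, and the genes below the rest had EV means between 10.90 and 11.71. Other genes as dim (Ttk, 8.73, and Birc5, 8.95) or as bright (Plk1, 11.43, and Mki67, 11.93) overlapped on this scale. The part of signal level in these differences was not tested. These differences are a description and were given no test, and no share over all genes was computed on this scale.

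On the same scale the G183S arrays stood clear of the EV arrays for 3 genes that were higher, Cenpe by 0.66, Ndc80 by 0.54 and Hmmr by 0.49. They also stood clear for 3 that were lower, Tpx2 by -0.16, Aurkb by -0.15 and Ccna2 by -0.13. Relative to the other 34 genes, Cenpe lay between -1.39 and -0.92 on the G183S arrays, between -1.08 and -0.81 on the WT arrays and between -2.03 and -1.55 on the EV arrays. Ndc80 lay between -0.99 and -0.24 on the G183S arrays, between -0.94 and -0.54 on the WT arrays and between -1.20 and -1.12 on the EV arrays. For these kinetochore genes even the third G183S array was above the EV range once the level of the group on that array was taken off. Cenpf overlapped on this scale, with G183S arrays from -1.87 to -1.29 and EV arrays from -2.12 to -1.65.

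Genes of the same processes that are not among the 35 were read from lists written with the earlier results known. In WT against EV cells, 2 of 20 other kinetochore and checkpoint genes were called, both higher, against 0.883% of all genes called higher. The same share stands beside each count of list genes called higher in WT cells that follows. Knl1, the scaffold that docks Bub1 on the kinetochore, had 10.67, 10.47, 9.65 and 10.23 on the G183S arrays, 10.80, 10.85 and 10.64 on the WT arrays and 9.51, 9.63 and 9.86 on the EV arrays, a WT difference of 1.09 ± 0.22 (SE, adjusted p = 0.0403). Sgo2a, a shugoshin that protects centromeric cohesion in germ cells, had 10.75, 10.05, 9.56 and 9.84 with G183S, 11.05, 10.98 and 10.79 with WT and 9.65, 9.57 and 9.85 with the empty vector, a WT difference of 1.25 ± 0.25 (SE, adjusted p = 0.0384). The first G183S array lay just inside the WT range for Knl1 and just below the lowest WT array for Sgo2a. Of 17 other centromere genes 1 was called, Cenpq, a subunit of the inner kinetochore network. Cenpq had 9.98, 10.28, 9.86 and 9.84 on the G183S arrays, 10.17, 10.15 and 10.09 on the WT arrays and 9.16, 9.28 and 9.50 on the EV arrays, a WT difference of 0.83 ± 0.12 (SE, adjusted p = 0.0171). All 4 of its G183S arrays were above all EV arrays, and the G183S difference was 0.67 (adjusted p = 0.0501).

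Among 22 other spindle and cytokinesis genes, 2 were called higher in WT cells, against 0.883% of all genes. Kif18a, the kinesin that damps chromosome movement at the metaphase plate, differed by 1.27 ± 0.27 (SE, adjusted p = 0.0493) and the depolymerase Kif2a by 0.52 ± 0.10 (SE, adjusted p = 0.0357). The mitotic entry list had 2 of 15 called higher: Cdc25b, the phosphatase that switches on Cdk1, and Cks2, a small Cdk-binding protein. Cdc25b had 10.97, 10.61, 10.16 and 10.65 with G183S, 11.21, 11.08 and 10.80 with WT and 9.56, 10.05 and 9.91 with the empty vector, a WT difference of 1.19 ± 0.20 (SE, adjusted p = 0.0233), and Cks2 differed by 0.43 ± 0.09 (SE, adjusted p = 0.0439). In the condensin and cohesin list 1 of 16 was called, Smc2, the core of both condensins (0.69 ± 0.15 SE, adjusted p = 0.0484). In the anaphase-promoting complex list 1 of 18 was called, the subunit gene Cdc27 (0.47 ± 0.08 SE, adjusted p = 0.0225). None of these 9 genes was called without each EV array in turn or without the first WT array. With G183S against EV or WT cells, limma called 0 genes of these 6 lists. At an unadjusted p under 0.05, 8 of 16 condensin and cohesin genes were higher in G183S than in EV cells (Smc2, Smc4, Smc1a, Smc3, Stag1, Stag2, Pds5a and Nipbl), against 5.12% of all genes. The other 5 lists had 3 of 17 centromere, 3 of 15 mitotic entry and 1 of 20 kinetochore and checkpoint genes higher. They also had 1 of 18 anaphase-promoting complex and 1 of 22 spindle and cytokinesis genes higher. Lower were 2 anaphase-promoting complex genes and 1 spindle gene, against 6.18% of all genes lower. Without the first G183S array, Sgo2a and Kif18a were called lower in G183S than in WT cells, by -1.12 (adjusted p = 0.00913, range 0.00913 to 0.845 over all alternatives) and -1.05 (adjusted p = 0.0209, range 0.0167 to 0.845).

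DNA replication genes had a smaller median difference than the mitotic genes. The median WT difference over 30 replication genes was 0.16, with 0 called. At an unadjusted p under 0.05, 2 of 30 were higher (Tyms and Gins2), against 7.38% of all genes, and 0 were lower. As the mean of the list minus the EV mean, the arrays stood at -0.02, 0.20, -0.20 and 0.12 with G183S, at 0.19, 0.05 and 0.15 with WT and at -0.31, 0.19 and 0.12 with the empty vector. The WT arrays thus lay inside the EV range for replication and above it for the 35 mitotic genes. The first EV array, the lowest of its group in 34 of the 35 mitotic genes, was also the lowest in 30 of 30 replication genes. The difference between the 2 lists was not tested.

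**Figure D4:**
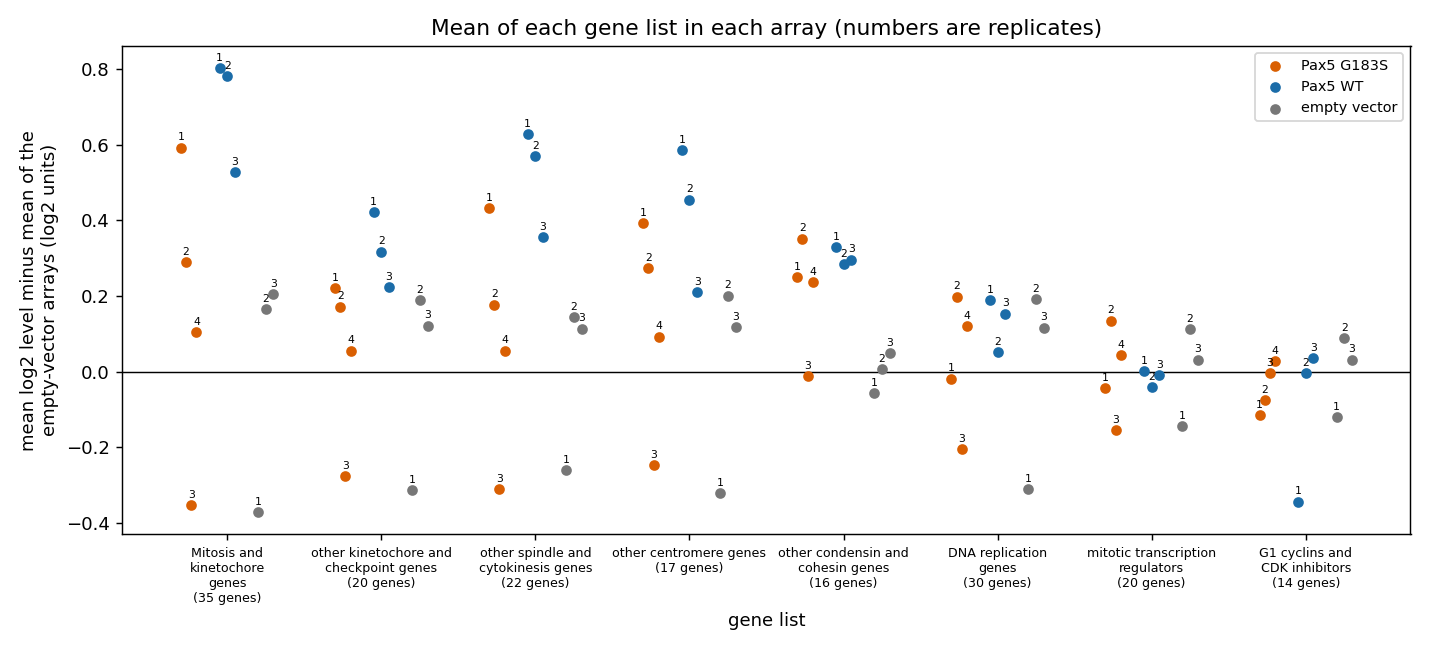
Mean log2 level of each gene list on each array minus that list's mean over the EV arrays (axis in log2 units), for G183S, WT and EV arrays. The mitosis and kinetochore list separates all WT arrays, 0.53 to 0.80, from all EV arrays, -0.37 to 0.21, and the DNA replication list does not.

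Of 20 transcription regulators of the mitotic program, limma called 0 in WT against EV cells. At an unadjusted p under 0.05, 1 of 20 was higher and 2 were lower, close to the 7.38% of all genes higher and 8.55% lower. Rbl2, the pocket protein p130 that represses cell-cycle genes within DREAM, had the largest difference, -1.22 ± 0.38 (SE, adjusted p = 0.147). It had 8.25, 9.32, 9.99 and 9.50 on the G183S arrays, 7.67, 8.47 and 8.54 on the WT arrays and 9.64, 9.45 and 9.26 on the EV arrays. The WT arrays and the first G183S array were low, and the remaining G183S arrays were above the lowest EV array. Foxm1, an activator of G2 and M genes, had 10.22, 10.01, 9.34 and 9.72 with G183S, 10.25, 10.32 and 10.03 with WT and 9.51, 10.31 and 10.27 with the empty vector, with the first EV and the third G183S arrays the lowest, as for the mitotic genes. For Mybl2, the B-Myb gene, the values were 10.23, 9.62, 9.16 and 9.60 on the G183S arrays, 10.41, 9.74 and 9.69 on the WT arrays and 9.38, 9.97 and 9.88 on the EV arrays. The ranges of the 3 groups overlapped for Foxm1 and Mybl2.

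limma called 0 markers of other cell types higher in WT cells; Vim, with 0.87 ± 0.19 (SE, adjusted p = 0.0563), came nearest. Of 9 T-cell markers 1 was called, Cd3g, lower by -1.09 ± 0.16 (SE, adjusted p = 0.0172) in WT cells and by -1.15 ± 0.15 (SE, adjusted p = 0.0171) in G183S cells. Of 8 stromal markers 1 was called, Pecam1, lower by -1.54 ± 0.25 (SE, adjusted p = 0.0216) in WT cells and by -1.54 ± 0.23 (SE, adjusted p = 0.0303) in G183S cells. Of all genes, 0.993% were called lower in WT and 0.211% in G183S cells. The stromal list did not fall as a whole. Against EV cells, 7 of its 8 genes averaged higher with WT (53.9% of all genes) and 4 of 8 with G183S (48.8%). Over all alternatives the adjusted p of Cd3g reached 0.0758 in WT and 0.126 in G183S cells, and that of Pecam1 0.116 in WT and 0.222 in G183S cells. limma called 0 of 9 myeloid and 0 of 6 erythroid markers. The mean of the myeloid markers minus the EV mean was -0.23, 0.02, 0.27 and 0.15 on the G183S arrays, -0.38, -0.22 and -0.12 on the WT arrays and 0.03, 0.04 and -0.07 on the EV arrays, so this mean ran opposite to the mitotic genes on the WT arrays and among the G183S arrays. The list did not move as a whole: with WT 4 of 9 markers were higher and 5 lower than in EV cells, with a median of -0.02. Adgre1 (EV mean 6.8, WT mean 5.8), Mpo (7.4 and 6.5) and Cd68 (9.9 and 9.4) fell most. Below 7.23 on every array were 6 of 9 T-cell markers, with all 3 Cd3 chains among them, 6 of 9 myeloid, 4 of 6 erythroid and 2 of 8 stromal markers. Markers above it on every array were the T-cell marker Cd28, up to 12.42, the myeloid marker Cd68, up to 10.39, and 1 each of the erythroid and stromal lists, and Cd4 reached 9.30 on the second EV array. The part of these lists in the mitotic differences was not tested.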

How the data were processed

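RNA of 10 cultures was labelled with biotin and hybridised to 1 array each, from 100 ng of total RNA, per the labels' protocols. The deposited table holds log2 values of 34760 probe sets; RMA and Partek are named per the submitters' processing notes, with no version or role. Array medians lay between 6.81 and 6.94. Of the probe sets, 21640 carried 1 gene symbol and 1321 several, and the remaining ones were unnamed here; 21553 probe sets with 1 symbol matched RefSeq, and the table held 19937 genes. No detection call or scan date entered the work, and precision is set by how many arrays there are.

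All 10 arrays entered the same linear model with a mean for each group (R 4.3.3, limma 3.58.1, 7 residual and 2.88 prior degrees of freedom), tested two-sided with Benjamini-Hochberg adjustment over all genes. The fit was tested on simulated data in which each value was drawn independently. Shifts shared by many genes of an array, as seen here, were not part of that simulation. p-values measure the spread between cultures of 1 line. The 35 genes and the other lists were chosen with earlier results of these data known, so no p was computed over a list. Genes with values on each array are 8 listed by name, those called, and the 2 of each class with the smallest p in WT against EV cells; of other lists, called genes and up to 3 with the smallest p were eligible. Foxm1, Mybl2, the genes of the condensin and cohesin count, Sdc1, Tnfrsf17, Jchain and Xbp1 were named in addition, after their values were seen. Alternatives were each array left out, the replicate number as a block, array scaling, dim genes left out, other variance models, array weights and the mean of a gene's probe sets.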

Additional observations from a re-analysis of the deposited data

Results flagged for a closer look

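An array far from the others of its group was sought in the G183S group, the only one of 4 arrays, over 85 sets of 4 values, and a gap above Dixon's critical share of the group's range was met in 2, where chance gives about 1 in 20. Ccnb2 stood at 12.25 on the first G183S array, against 11.20, 11.03 and 11.01 on the other 3, a gap of 0.845 of the range. Ube2s, which extends ubiquitin chains for the anaphase-promoting complex, stood at 11.364 on the third G183S array, against 11.64, 11.64 and 11.65 on the other 3, a gap of 0.961 of the range.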

How the results depend on the processing

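The WT minus EV difference kept its sign under every alternative for the genes followed singly. These were the mitotic genes with values on each array and the called genes of the other lists. Other genes named in the text, Foxm1 and Mybl2 among them, were not followed. The median over the 35 stayed between 0.47 and 0.77 with 1 array left out. The count called moved: 0 to 8 with 1 array left out, 0 with the replicate number as a block, 1 with arrays centred on their median, 6 with only the arrays of the 2 groups fitted and 19 with array weights. Of all genes, 1.16% were called higher with only the arrays of the 2 groups and 5.59% with array weights. All-gene WT counts ranged from 6 without the third EV array to 2576 with array weights, against 374. Without the first G183S array they were 1033, against 295 for G183S and EV (62 with all arrays). For G183S against WT cells, 0 to 11 were called with 1 array left out, 21 with array weights and 16 with the first EV and first G183S arrays left out together, an alternative added after the data were seen; the median stayed between -0.68 and -0.39 with 1 array left out. For G183S against EV cells, 0 were called with 1 array left out and 1 (Cenpe) with array weights, against 3.62% of all genes called higher with those weights. The median ran from -0.08 to 0.26 with 1 array left out and moved to -0.20 without those 2 arrays. The cause was not tested.

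The sign of small G183S minus EV differences turned without those 2 arrays for Aspm (-0.21), Aurka (-0.33), Aurkb (-0.31), Bub1 (-0.13), Cdk1 (-0.19), Ect2 (-0.02), Kif23 (-0.12), Mki67 (-0.12), Ncapg (-0.10) and Plk1 (-0.44). It turned with array weights for Aurka (-0.0313), Aurkb (-0.0747) and Plk1 (-0.12), with centred arrays for Aurkb (-0.0217) and Plk1 (-0.0130), with quantile normalization for Aurkb (-0.0065) and with the replicate block for Birc5 (0.0064). With 1 array left out the values ran as follows: Aspm -0.0730 to 0.41, Aurka -0.19 to 0.23, Aurkb -0.16 to 0.17, Birc5 -0.35 to 0.22, Cdc20 -0.25 to 0.16, Cdk1 -0.14 to 0.18, Mad2l1 -0.19 to 0.0869, Mki67 -0.0624 to 0.22, Ncapg -0.0152 to 0.29, Nek2 -0.23 to 0.10 and Plk1 -0.24 to 0.22. For G183S minus WT, Kif2a turned with array weights (0.0747) and Pecam1 with the replicate block (0.0046), and the ranges with 1 array left out were Cd3g -0.145 to 0.0295, Kif2a -0.0738 to 0.0659 and Pecam1 -0.24 to 0.23.

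The replicate numbers did not pair the arrays across all groups. For replicates 1, 2 and 3, correlations of same-numbered deviations were 0.507, -0.162 and 0.455 for G183S and WT. They were -0.162, 0.108 and -0.160 for G183S and EV, and -0.085, -0.008 and -0.141 for WT and EV. Between G183S and WT, replicates 1 and 3 thus deviated together and replicate 2 did not. Crossed numbers gave -0.581 for G183S replicate 1 with WT replicate 3, and -0.482 for G183S replicate 3 with WT replicate 1. Deviations were taken from each group's mean, which ties these correlations together, so the crossed ones are not independent of the same-numbered ones. The remaining crossed G183S and WT correlations lay between -0.172 and 0.267. With the replicate block the WT call had adjusted p = 0.0526 for Cenpe, 0.0692 for Cenpf and 0.0670 for Ndc80, and 228 genes were called in all, against 374. Array signals give no count of molecules, so depth sets no floor here; 9969 genes remained once dim ones were left out, and the 3 WT calls were made there too.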

Other observations

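G1 cyclins and CDK inhibitors, which govern entry into S phase, were measured as 14 genes. limma called 0 of them in WT against EV cells. At an unadjusted p under 0.05, 2 of 14 were higher and 3 lower, against 7.38% of all genes higher and 8.55% lower. Ccnd3, cyclin D3, had log2 levels of 9.92, 9.44, 9.82 and 9.79 on the G183S arrays, 9.62, 9.73 and 9.62 on the WT arrays and 10.05, 10.26 and 10.16 on the EV arrays. All G183S and all WT arrays were below all EV arrays, with differences from EV of -0.41 ± 0.11 (SE, adjusted p = 0.142) for G183S and -0.50 ± 0.12 (SE, adjusted p = 0.0647) for WT.

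Ccnd2, cyclin D2, lay the other way, at 12.42, 12.07, 11.97 and 12.13 on the G183S arrays, 12.34, 12.34 and 12.20 on the WT arrays and 11.90, 11.86 and 11.72 on the EV arrays. Its differences from EV were 0.32 ± 0.10 (SE, adjusted p = 0.249) for G183S and 0.46 ± 0.11 (SE, adjusted p = 0.0736) for WT. Cdkn2d, the CDK4 and CDK6 inhibitor p19, differed from EV by -0.49 ± 0.19 (SE, adjusted p = 0.334) in G183S and by -0.71 ± 0.20 (SE, adjusted p = 0.110) in WT cells.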
